A study of Mus musculus with 4 samples.

Results

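The 44 genes described here encode the ligands, receptors, signal transducers, inhibitors and targets of transforming growth factor beta (TGF-beta) and bone morphogenetic protein (BMP) signalling. They were chosen by name from the pathway, though with earlier results of these data known. Each matched 1 of the 23185 probe sets that carry a gene symbol. RNA came from airway smooth muscle cells of adult Acta2-hrGFP;Cspg4-DsRED mice, a line in which a green protein follows the smooth muscle actin promoter and a red one the promoter of Cspg4, a gene of pericytes. Green cells without red were sorted from lung, and all 4 groups carried both transgenes. Each group was 1 expression array made from the pooled RNA of 3 mice.

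The groups were as follows. VAD mice ate a vitamin A-deficient diet, with under 0.1 IU of vitamin A per gram, given as 3 days in one part of the labels and as 5 days in another. VAS mice ate a normal sufficient diet with 15 IU per gram. BMS mice ate for 3 days a powdered sufficient diet with 5 mcg per gram of BMS, a compound that blocks every type of retinoic acid receptor. CTR mice ate the same powdered diet for 3 days with the corn oil vehicle alone. Retinoic acid is what cells make from vitamin A to regulate genes. The comparisons ask what airway muscle expresses when that signal is low. The series calls VAD and BMS retinoic acid-deficient, and they are the deficient arms below. BMS mice ate a sufficient diet, so theirs is a block of the receptors. With 1 array per group no spread between mice could be measured, so "higher" and "lower" below describe these arrays. Values are log2 expression levels, on which a difference of 1 is 2-fold. Levels are compared between arrays within a gene, never between genes.

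TGF-beta is secreted in a latent complex that latent TGF-beta binding proteins anchor in the matrix, and once released it joins the receptors Tgfbr2 and Tgfbr1, which phosphorylate Smad2 and Smad3. BMPs act through Bmpr2 and type I receptors such as Bmpr1a and Acvr1, which phosphorylate Smad1 and Smad5, and both branches share Smad4. In airway muscle TGF-beta is known for driving contractile and matrix genes, and secreted antagonists, inhibitory Smads and ubiquitin ligases restrain both branches.

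The sort was checked against marker lists. All 10 airway smooth muscle markers lay above the low-value limit used here, the median of all values (6.05), which a gene had to reach on at least 1 array. So did all 11 fibroblast markers and all 9 pericyte and vascular muscle markers, and whether their RNA came from other mesenchymal cells or from airway muscle was not tested. Of the other lists, 8 of 11 measured macrophage, 1 of 6 lymphocyte, 5 of 9 alveolar epithelial and 2 of 5 airway epithelial markers passed, as did 8 of 9 endothelial and 2 of 4 mesothelial markers. Over all genes 53.5% passed, so passing alone does not show that a cell type was present. The 4 arrays were similar across all genes, with Pearson r between 0.987 and 0.992 for their pairs, and genes are not independent replicates. In a pooled sort, fewer cells of a type and less RNA per cell cannot be told apart.

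All 44 members passed the low-value limit, where 53.5% of all genes did, although Nog did so on the BMS array alone. Most of the pathway stood at similar levels on all 4 arrays. In the diet experiment 0 members were 2-fold higher in VAD, where 0.234% of the 12395 genes past the limit were, and 0 were 2-fold lower, where 0.42% were. In the antagonist experiment 1 member was 2-fold higher, the BMP ligand Bmp6, where 1.07% of genes were, and 0 were 2-fold lower, where 0.282% were. At 1.5-fold, Tgfbr2 and Fstl3 were higher in VAD, 2 of 44 (4.55%) against 1.45% of all genes, and Bmp6 was lower, 1 of 44 (2.27%) against 2.11%. Bmp6 and the BMP regulator Bmper were 1.5-fold higher in BMS, 2 of 44 (4.55%) against 3.11% of all genes, and 0 were 1.5-fold lower, against 1.89%. The median difference of the members was 0.05 in VAD minus VAS and -0.01 in BMS minus CTR, beside 0.01 and 0.01 over all genes. These counts and medians carry no test, and each count is 2 genes at most.

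**Figure D1:**
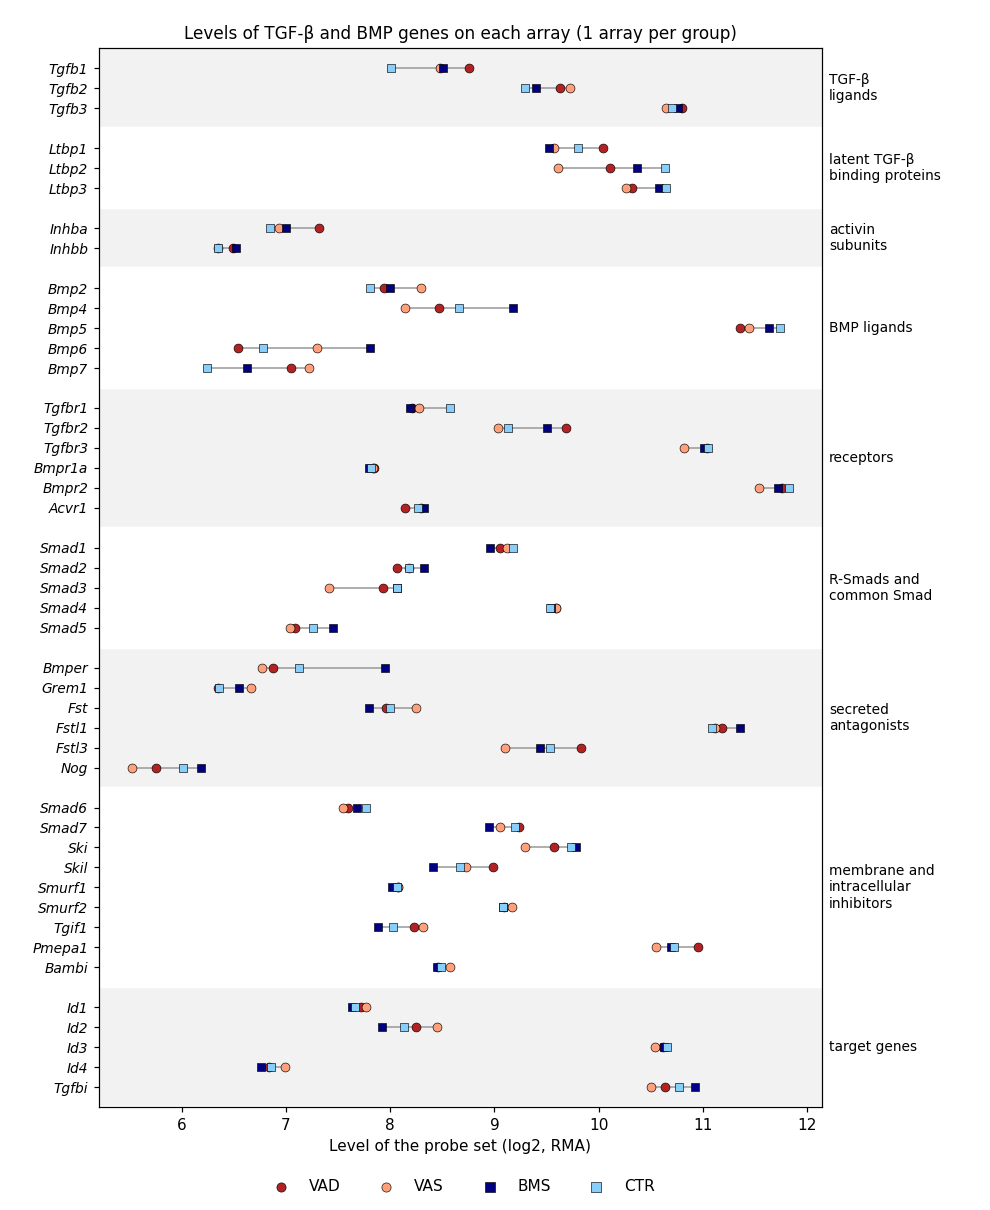
Level of each of the 44 genes (log2, horizontal axis) on the VAD, VAS, BMS and CTR arrays, ordered by role, with a grey line spanning the 4 values. Most genes span well under 1 log2 unit, and the widest spans belong to Bmp6 (1.26) and Bmper (1.18).

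Among the TGF-beta ligands, Tgfb1 and, by less, Tgfb3 stood higher in both retinoic acid-deficient arms. The level of Tgfb1 was 8.75 in VAD, against 8.47 in VAS, and 8.51 in BMS, against 8.01 in CTR. Both deficient arrays lay above both controls, but VAS (8.47) and BMS (8.51) were almost equal, and CTR was the array that stood low. Tgfb2 was 9.63 in VAD and 9.72 in VAS, and 9.40 in BMS and 9.29 in CTR, so it separated the experiments rather than the arms. Tgfb3 kept within 0.15 log2 units on all 4 arrays, at 10.80 in VAD, 10.65 in VAS, 10.76 in BMS and 10.70 in CTR.

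The latent TGF-beta binding proteins Ltbp1, Ltbp2 and Ltbp3 were higher in VAD than in VAS (0.47, 0.50 and 0.05) and lower in BMS than in CTR (-0.27, -0.27 and -0.06). Ltbp2, also a component of elastic fibres, was 10.11 in VAD and 9.61 in VAS, and 10.37 in BMS and 10.64 in CTR. Its largest step was between the controls, 2.04-fold higher in CTR than in VAS. Ltbp1 was 10.04 in VAD and 9.57 in VAS, and 9.53 in BMS and 9.80 in CTR, so VAD stood high. Pericyte and vascular muscle markers moved beside this group, and so did airway smooth muscle markers. Of the pericyte and vascular list, 7 of 9 were higher in VAD than in VAS (median 0.23) and 8 of 9 lower in BMS than in CTR (-0.26). In CTR 9 of 9 were higher than in VAS (0.34). For airway smooth muscle these were 9 of 10 higher (0.16), 10 of 10 lower (-0.19) and 6 of 10 higher (0.06). The part of either list in the Ltbp values was not tested.

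Inhba and Inhbb encode the beta subunits of activins, relatives of TGF-beta that signal through Smad2 and Smad3. Inhba was 7.32 in VAD and 6.93 in VAS, and 7.00 in BMS and 6.85 in CTR. Inhbb was 6.50 in VAD and 6.35 in VAS, and 6.52 in BMS and 6.35 in CTR. Both deficient arrays lay above both controls for each subunit, with differences of 0.39 at most within an experiment.

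Within the experiments, a BMP ligand held the widest differences. The bases upstream of Bmp6 are shown first, since the gene was the member with the widest span, together with those of Bmper, the other member 1.5-fold apart in the antagonist experiment. They are the 250 bases before the gene start in the RefSeq promoter table of build GRCm38.p6, in the direction of transcription. Capitals would mark AGGTCA or its complement TGACCT, a single unit of the repeated site that retinoic acid receptors bind, and the BMP Smad site GGCGCC, searched on both strands. Neither stretch holds a match, which says only that these letters are absent from these windows.
Bmp6, chr13:38345466-38345715, plus strand: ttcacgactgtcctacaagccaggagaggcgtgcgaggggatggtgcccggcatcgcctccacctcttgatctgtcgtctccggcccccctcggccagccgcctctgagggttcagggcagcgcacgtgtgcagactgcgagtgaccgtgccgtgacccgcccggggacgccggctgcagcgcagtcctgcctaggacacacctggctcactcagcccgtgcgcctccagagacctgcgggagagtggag
Bmper, chr9:23222826-23223075, plus strand: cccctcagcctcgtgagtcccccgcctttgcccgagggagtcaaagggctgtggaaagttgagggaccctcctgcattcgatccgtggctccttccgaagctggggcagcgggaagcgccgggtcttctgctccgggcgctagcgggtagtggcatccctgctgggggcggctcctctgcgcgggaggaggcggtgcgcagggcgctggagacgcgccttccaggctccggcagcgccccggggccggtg

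Bmp6, known for inducing hepcidin in liver and for bone formation, moved in opposite ways in the experiments. It was 6.54 in VAD and 7.30 in VAS, and 7.80 in BMS and 6.78 in CTR. VAD was the lowest array and BMS the highest, with the controls between them and 0.51 apart. That made Bmp6 1.69-fold lower in VAD than in VAS and 2.03-fold higher in BMS than in CTR. Set against the other control, the differences were smaller, at -0.24 for VAD minus CTR and 0.50 for BMS minus VAS. With quantile normalization run again BMS minus CTR was 0.98, just under 2-fold. Endothelial markers gave a mixed picture beside it. Tek, the angiopoietin receptor of endothelial cells and named after its values were seen, was 6.86 in VAD and 7.45 in VAS, and 8.14 in BMS and 6.72 in CTR. Of the 8 endothelial markers past the limit, 3 were lower and 5 higher in VAD than in VAS (median 0.04). In BMS 6 were higher and 2 lower than in CTR (median 0.22). Cldn5, also named after its values were seen, went against Bmp6 in the diet experiment, at 7.93 in VAD and 6.98 in VAS. The part of endothelial cells in the Bmp6 values was not tested.

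Bmp4, which patterns lung mesenchyme, was higher in both deficient arms, at 8.47 in VAD against 8.14 in VAS and at 9.18 in BMS against 8.66 in CTR. The groups overlapped, since CTR lay above VAD. Bmp7, a BMP that opposes TGF-beta in kidney, was 7.05 in VAD and 7.22 in VAS, and 6.62 in BMS and 6.24 in CTR. Its widest step lay between the controls, 1.97-fold lower in CTR than in VAS. Alveolar epithelial markers were also lower in CTR than in VAS, 5 of 5 past the limit with a median of -1.56. So were 8 of 8 macrophage markers past the limit (median -0.73) and 8 of 11 fibroblast markers (-0.38), with 3 fibroblast markers higher. The part of these lists in the Bmp7 values was not tested. Bmp2 was 7.94 in VAD and 8.29 in VAS, and 8.00 in BMS and 7.81 in CTR. Bmp5 was 11.35 in VAD and 11.44 in VAS, and 11.63 in BMS and 11.74 in CTR, so it differed by 0.11 at most within an experiment.

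**Figure D2:**
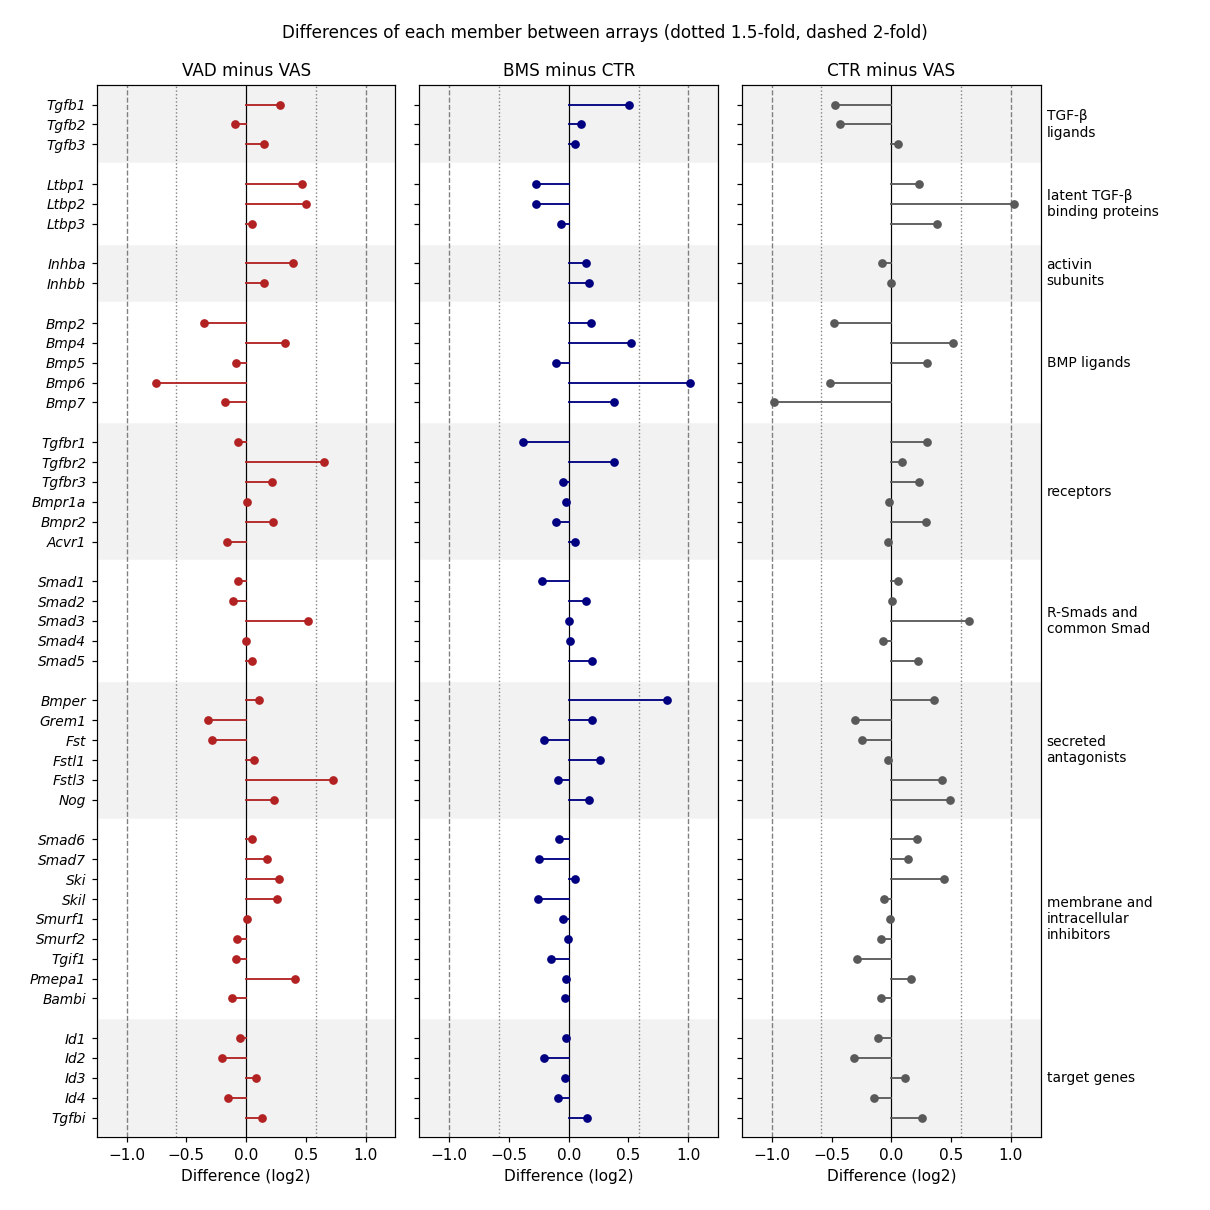
Difference of each gene (log2, horizontal axis) for VAD minus VAS, BMS minus CTR and CTR minus VAS, ordered by role, with 1.5-fold marked by dotted and 2-fold by dashed lines. Bmp6 points left in the diet experiment (-0.76) and right in the antagonist experiment (1.02), and Ltbp2 (1.03) and Bmp7 (-0.98) stand out between the controls.

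Among the receptors, Tgfbr2 was higher in both deficient arms. The 250 bases upstream of it are shown with those of Fstl3, the other member 1.5-fold higher in VAD. The Fstl3 stretch holds TGACCT 200 bases before the gene start, marked in capitals, and that of Tgfbr2 holds neither AGGTCA nor GGCGCC.
Tgfbr2, chr9:116175364-116175613, minus strand: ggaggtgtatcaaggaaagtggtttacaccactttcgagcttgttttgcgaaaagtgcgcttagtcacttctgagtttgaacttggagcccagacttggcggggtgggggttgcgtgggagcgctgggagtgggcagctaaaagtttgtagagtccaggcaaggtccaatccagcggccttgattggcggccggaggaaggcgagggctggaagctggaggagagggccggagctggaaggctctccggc
Fstl3, chr10:79777024-79777273, plus strand: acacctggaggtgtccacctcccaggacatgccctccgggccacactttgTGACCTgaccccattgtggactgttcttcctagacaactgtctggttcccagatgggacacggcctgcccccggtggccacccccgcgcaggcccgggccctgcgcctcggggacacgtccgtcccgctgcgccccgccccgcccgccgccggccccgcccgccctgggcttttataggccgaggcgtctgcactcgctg

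Tgfbr2, the type II receptor that binds TGF-beta and activates Tgfbr1, was 9.68 in VAD and 9.04 in VAS, and 9.50 in BMS and 9.13 in CTR. Both deficient arrays stood above both controls, and the controls were 0.09 apart. Tgfbr2 was 1.57-fold higher in VAD than in VAS and 1.30-fold higher in BMS than in CTR. Against the other experiment's control it was higher by 0.56 for VAD minus CTR and 0.47 for BMS minus VAS, a direction that the separation above already fixes. Its partner Tgfbr1 was 8.21 in VAD and 8.28 in VAS, and 8.19 in BMS and 8.58 in CTR, so the deficient arrays lay lower, with CTR standing high. The co-receptor Tgfbr3, or betaglycan, and the BMP type II receptor Bmpr2 differed by 0.22 each in VAD minus VAS and by -0.04 and -0.10 in BMS minus CTR. Bmpr1a, a BMP type I receptor, stayed between 7.79 and 7.84 on all 4 arrays, and Acvr1, an activin and BMP type I receptor, between 8.14 and 8.32.

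The Smads that carry the signal were mostly level. Smad3, which transmits TGF-beta and activin signals, was 7.93 in VAD and 7.41 in VAS, and 8.07 in BMS and 8.06 in CTR. VAS was the array that stood apart, 1.57-fold below CTR. Smad4, the partner of both branches, stayed between 9.53 and 9.59. Smad2 stayed between 8.07 and 8.32 and Smad1, a BMP Smad, between 8.95 and 9.17. Smad5, the other BMP Smad here, was 7.09 in VAD and 7.04 in VAS, and 7.46 in BMS and 7.26 in CTR.

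Of the secreted antagonists, 1 was 1.5-fold higher in VAD and another in BMS. Fstl3, which binds activins and myostatin, was 9.83 in VAD and 9.10 in VAS, and 9.44 in BMS and 9.53 in CTR. VAD stood highest and VAS lowest, a 1.66-fold step, while the antagonist experiment showed -0.09. Bmper, a secreted BMP-binding protein that can restrain or promote BMP signals, was 7.95 in BMS and 7.13 in CTR, and 6.87 in VAD and 6.77 in VAS. BMS stood alone at the top, 1.77-fold above CTR, and the other 3 arrays lay within 0.36 of each other.

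Fibroblast markers moved beside Bmper and Bmp6 in the antagonist experiment. All 11 were higher in BMS than in CTR, with a median of 0.48, and their mean level was 9.89 in BMS, 9.12 in CTR, 9.66 in VAD and 9.73 in VAS. CTR was the low array for that list, while Bmper was lowest in VAS. Their part in the values of Bmper and Bmp6 was not tested. All 10 airway smooth muscle markers were lower in BMS than in CTR, with a median of -0.19.

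Fst, or follistatin, which binds activins, was lower in both deficient arms, at 7.96 in VAD against 8.25 in VAS and at 7.80 in BMS against 8.00 in CTR. VAD and CTR differed by 0.04, so the groups barely separated. Grem1, or gremlin, which binds Bmp2 and Bmp4, was 6.35 in VAD and 6.67 in VAS, and 6.55 in BMS and 6.36 in CTR. Nog, or noggin, another BMP-binding protein, was 5.75 in VAD and 5.52 in VAS, and 6.19 in BMS and 6.02 in CTR. It lay near or under the low-value limit throughout. Fstl1, a follistatin-like glycoprotein needed for lung development, was 11.18 in VAD and 11.12 in VAS, and 11.35 in BMS and 11.09 in CTR.

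**Figure D3:**
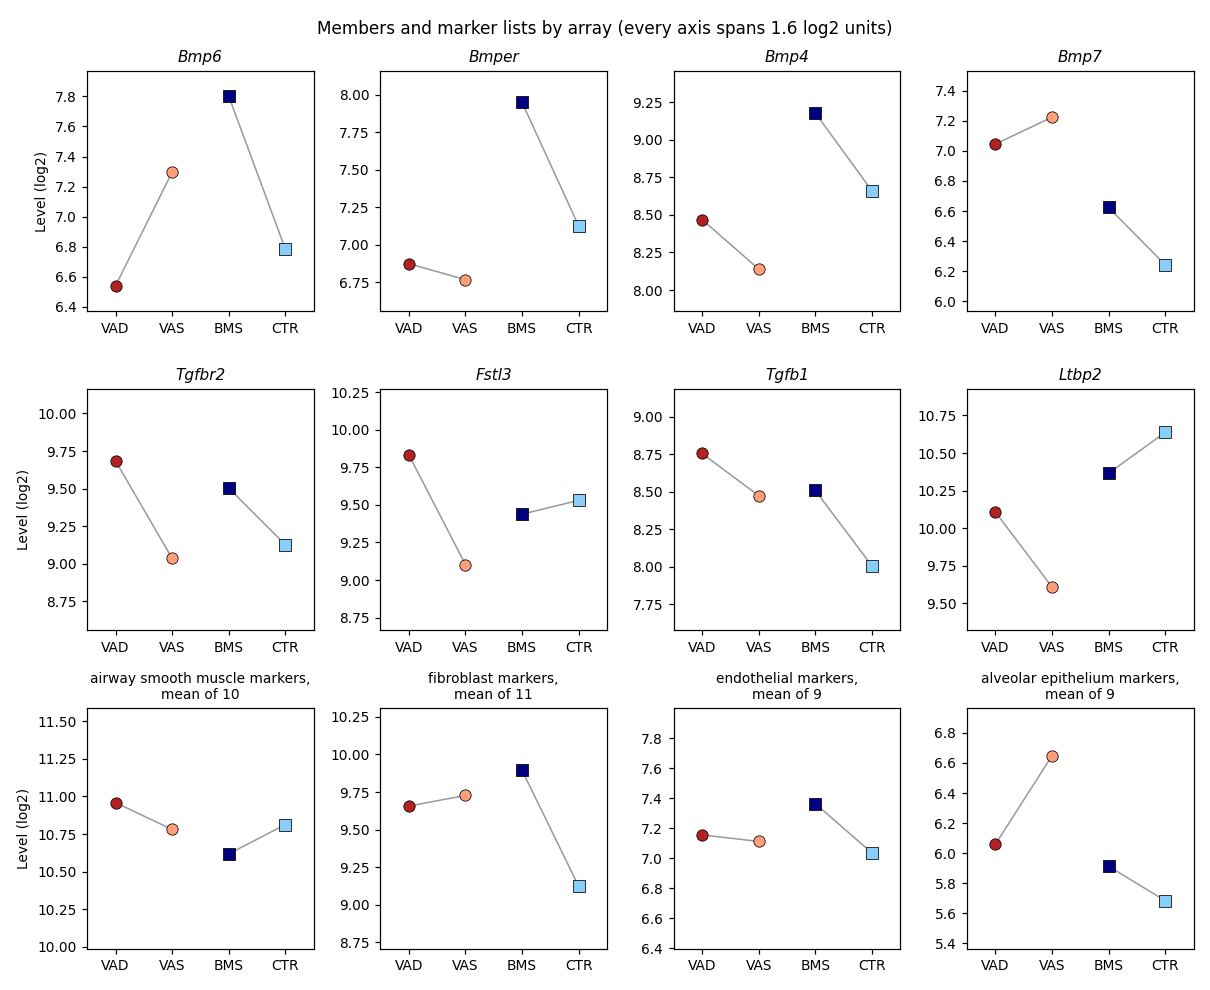
Levels (log2, vertical axes spanning 1.6 units each) of 8 genes and the mean levels of 4 marker lists on the VAD, VAS, BMS and CTR arrays, with lines joining the arrays of an experiment. Tgfbr2 and Tgfb1 slope the same way in both experiments, Bmp6 in opposite ways, and the fibroblast mean is lowest in CTR (9.12).

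The inhibitors inside the cell and at its membrane showed no member 1.5-fold apart in any of the 3 comparisons. Pmepa1, a TGF-beta-induced membrane protein that sequesters Smads, was 10.96 in VAD and 10.55 in VAS, and 10.69 in BMS and 10.72 in CTR, so VAD alone was high. Skil, which encodes the Smad repressor SnoN, was 8.99 in VAD and 8.73 in VAS, and 8.41 in BMS and 8.67 in CTR. Smad7, the inhibitory Smad that TGF-beta induces, was 9.23 in VAD and 9.05 in VAS, and 8.94 in BMS and 9.20 in CTR. These 3 genes were each higher in VAD and lower in BMS than their own control. Ski, a repressor related to Skil, was 9.57 in VAD and 9.29 in VAS, and 9.78 in BMS and 9.73 in CTR. Smad6, which inhibits BMP signals, stayed between 7.55 and 7.76. The ubiquitin ligases Smurf1 and Smurf2 spanned 0.06 and 0.09, and the decoy receptor Bambi 0.12. Tgif1, a corepressor of Smads, differed by -0.09 in VAD minus VAS and by -0.14 in BMS minus CTR.

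The 5 target genes among the members were close to level as well. Id1, Id2, Id3 and Id4 encode inhibitors of DNA binding that BMP signals induce through Smad1 and Smad5. Id2 was 8.24 in VAD and 8.45 in VAS, and 7.92 in BMS and 8.13 in CTR, differences of -0.20 and -0.21, with VAD above CTR. Id1 differed by -0.05 and -0.02, Id3 by 0.08 and -0.03 and Id4 by -0.15 and -0.09, the diet experiment given first. Tgfbi, a matrix protein named for its induction by TGF-beta, was 10.64 in VAD and 10.50 in VAS, and 10.92 in BMS and 10.77 in CTR. None of these 5 differed by over 0.21 in size within an experiment. Of 15 further targets past the limit, 11 were higher and 4 lower in VAD than in VAS (median 0.18, lowest -0.20, highest 0.60). Over all 12395 genes past the limit, 6376 were higher and 6006 lower in that comparison. In BMS minus CTR 7 of the 15 targets were higher and 8 lower (median -0.001, lowest -0.29, highest 0.63). Over all genes 6372 were higher and 6012 lower there.

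The 2 experiments use different arrays throughout, so their differences can be set side by side. Of the 44 members, 13 (29.5%) were above 0 in both, where 25.9% of all genes were, and 10 (22.7%) were below 0 in both, where 22.9% were. In 6 members both deficient arrays lay above both controls, Tgfb1, Tgfb3, Inhba, Inhbb, Tgfbr2 and Fstl1, a share of 13.6% beside 14.6% of all genes. In 5 they lay below, Tgfbr1, Smad1, Fst, Bambi and Id4, a share of 11.4% beside 11.6%. The joint test was limma on the deficient arrays against the controls with the experiment as a block, which leaves 1 residual degree of freedom. That residual measures how far the 2 experiments disagree, not a spread between mice. Limma's standard errors (SE) borrow from all genes tested, with 3.88 prior degrees of freedom, so they are not each gene's own error. The joint test called 0 members and 0 of 12395 genes (0.0%) at an adjusted p under 0.05. At an unadjusted p under 0.05 limma called 3 members as higher (6.82%), where 1.71% of all genes were, and 0 as lower, where 2.13% were. They were Tgfbr2, with a joint difference of 0.51 ± 0.14 (SE), Bmp4, with 0.42 ± 0.14, and Tgfb1, with 0.39 ± 0.14, and limma's adjusted p was 1.0 for each. Limma fits that leave out 1 array and the block hold 1 array on 1 side. Which members reached an unadjusted p under 0.05 in them changed with the array left out.

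**Figure D4:**
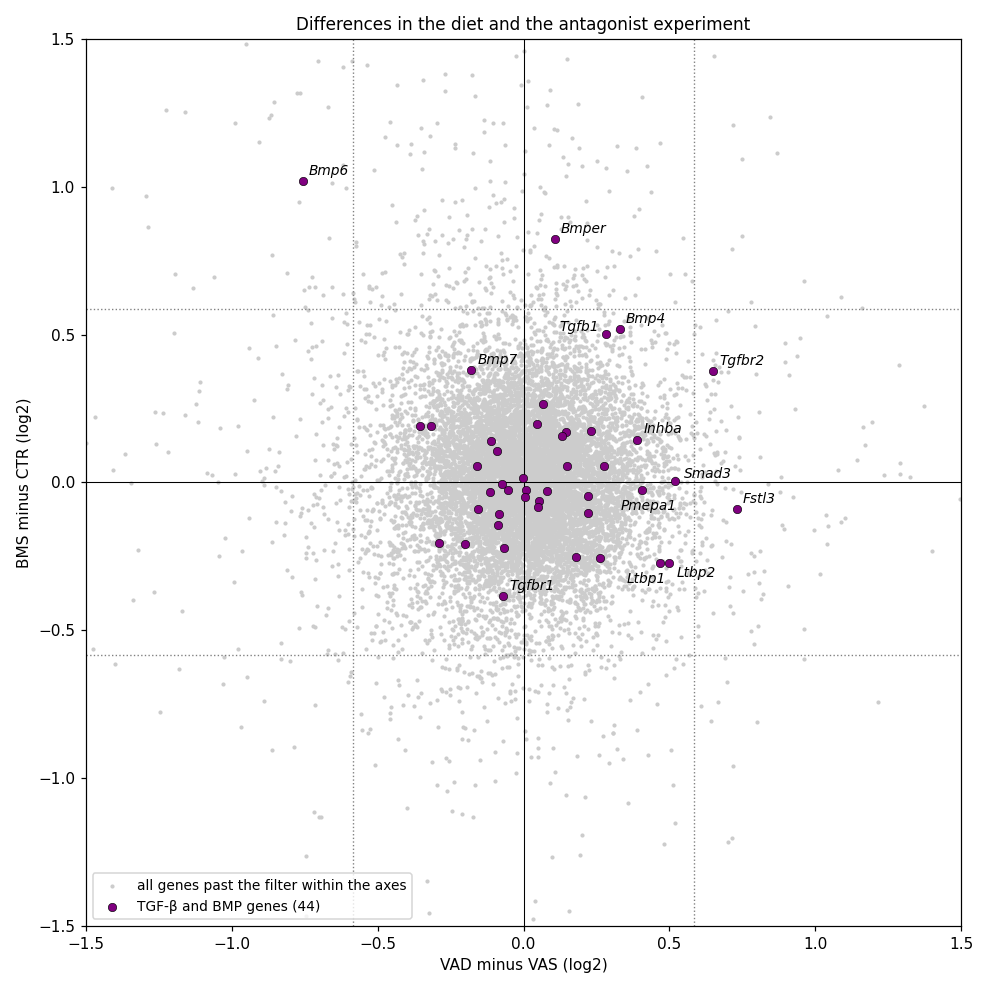
Difference in the diet experiment (VAD minus VAS, log2, horizontal) against that in the antagonist experiment (BMS minus CTR, log2, vertical) for the 44 genes (purple) and all genes past the low-value limit (grey), with 1.5-fold dotted. Tgfbr2 (0.65 and 0.38) lies in the upper right, Bmp6 (-0.76 and 1.02) in the upper left, and most members lie within the grey cloud.

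The 2 controls were further apart than the arms of either experiment, in the members as over all genes. Between CTR and VAS, 1 member was 2-fold higher, Ltbp2, where 0.323% of all genes were, and 0 were 2-fold lower, where 1.71% were. At 1.5-fold there were 3 of 44, Ltbp2 and Smad3 higher in CTR, where 2.66% of all genes were, and Bmp7 lower, where 5.87% were. The SD of the members' differences was 0.35 for CTR minus VAS, 0.28 for VAD minus VAS and 0.28 for BMS minus CTR, beside 0.38, 0.27 and 0.31 over all genes. Set against CTR in place of VAS, 21 of the 44 VAD differences changed sign, and set against VAS in place of CTR, 14 of the BMS differences did. Sign changes were not counted over all genes, so these counts cannot be read as a trait of the members. In 13 members both arrays of the antagonist experiment lay above both of the diet experiment, among them Bmp4, Bmp5, Bmper, Ltbp2, Smad3, Ski and Tgfbi, a share of 29.5% beside 23.9% of all genes. In 10 they lay below, among them Tgfb2, Bmp7, Skil, Tgif1, Id1 and Id2, a share of 22.7% beside 21.8%. The experiments differ in diet form, vehicle and pool of mice, which cannot be told apart, and this split was chosen after the values were seen.

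A further 85 genes of the pathway were listed, of which 81 had a probe set and 59 passed the low-value limit, where 53.5% of all genes did. In VAD minus VAS 3 of the 59 were 1.5-fold higher, where 1.45% of all genes were, and 0 lower, where 2.11% were. The highest was Lrrc32, or GARP, which holds latent TGF-beta on the cell surface. It was 9.90 in VAD and 8.87 in VAS, and 9.11 in BMS and 9.22 in CTR, a step of 1.04 seen in VAD alone. The others were the BMP antagonist Chrdl2 with 0.70 and the TGF-beta target Ccn2 with 0.60. In BMS minus CTR 3 of the 59 were 1.5-fold higher, where 3.11% of all genes were. They were the BMP type I receptor Bmpr1b with 0.98 (6.32 in BMS, its one array past the limit, and 5.33 in CTR), fibronectin, Fn1, with 0.63 and the BMP co-receptor Rgma with 0.60. Another 3 were 1.5-fold lower, where 1.89% of all genes were. These were Tdgf1 with -0.84, the activin type I receptor Acvr1b with -0.78 and Chrdl2 with -0.67. Chrdl2 was 7.12 in VAD and 6.42 in VAS, and 6.44 in BMS and 7.11 in CTR, so it stood high in VAD and CTR. Tdgf1, an embryonic co-receptor for Nodal, passed the limit in CTR alone, at 6.08, and was 1.75 higher there than in VAS. Gdf10, a ligand of the family, was 7.80 in VAD and 8.18 in VAS, and 7.80 in BMS and 7.45 in CTR. The median over the 59 was 0.08 in VAD minus VAS and 0.04 in BMS minus CTR. Ccn2, Fn1 and Rgma are named here after their values were seen.

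RefSeq promoter stretches were at hand for 31 of the 44 members, in 39 stretches since some genes have several starts. AGGTCA or TGACCT lay in the 250 bases of 3 of the 31 members, Fstl3, Grem1 and Tgif1, and in 14.0% of 32851 stretches of all genes. GGCGCC lay in those of 10 of the 31, among them Id2, Id4, Bmpr2, Bmpr1a and Tgfbr1, and in 9.59% of all stretches. A member counts once for a match in any of its stretches, while the percentages count single stretches, so these are unlike measures. The members' stretches had a median GC content of 64.0%, against 52.4% for all, and the part of GC content in the GGCGCC count was not tested. GTCT directly followed by AGAC, a palindrome that Smads bind, lay in those of 0 members and in 0.167% of all. These matches are letters in a window and show no binding.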

How the data were processed

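RNA of sorted airway smooth muscle cells was measured on 4 arrays, 1 per group, each made from 3 pooled mice. The authors deposited log2 expression levels, made with RMA (background correction, normalization between arrays, summary per probe set), for which the submitters' processing notes name affy 1.36.1 and R 2.15.1. The sources used here do not say whether other arrays shared the normalization, after which a change common to most genes is invisible. The deposited levels do not show which probe sets exceeded background, and precision is limited by the number of arrays. Slide and scan information was not used here.

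Of 25206 probe sets, 23185 have 1 gene symbol in GEO's platform annotation, none several, and 2021 are unnamed here. Symbols equal those of RefSeq (GRCm38.p6) by Entrez number, with 0 changed. The low-value limit was the median of all named values, reached on at least 1 array, which kept 12395 genes (53.5%). Differences within an experiment and between controls carry no test. The joint test was limma 3.58.1 in R 4.3.3 (lmFit and eBayes, Benjamini-Hochberg over all genes kept), whose code was tested on simulated data. Python 3.11.15, pandas 2.3.3, numpy 2.4.6 and matplotlib 3.10.9 were used. All members were to be named, and of other pathway genes those 2-fold apart in 1 of the 3 comparisons and the 6 with the largest differences. Members, lists and tests were chosen with earlier results of these data known. A further 4 listed genes are not analysed here. Alternatives were other filters, folds, normalizations, controls and limma settings.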

Additional observations from a re-analysis of the deposited data

Results flagged for a closer look

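Bmp6 differed in opposite ways in the experiments, past 1.5-fold in each. It was -0.76 for VAD minus VAS and 1.02 for BMS minus CTR on the log2 scale. The difference between these values was not tested, since each group is 1 array. It was the member with the widest span over the 4 arrays, 1.26.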

How the results depend on the processing

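The count of members 2-fold apart changed with the threshold. At 1.5-fold it was 3 in VAD minus VAS, 2 in BMS minus CTR and 3 in CTR minus VAS, and at 3-fold it was 0 in BMS minus CTR and 0 in CTR minus VAS. In BMS minus CTR it was 0 after quantile normalization again, which put Bmp6 at 0.98, and 2 with VAS in place of CTR, Bmp4 with 1.04 and Bmper with 1.18. Bmp6 was then 0.50, and 0.76 against the mean of both controls, where Bmper reached 1.00. Filters and cyclic loess left these counts as they were, and so did every alternative for VAD minus VAS other than the 1.5-fold threshold. Of 440 values of single members under another normalization or control, 434 stayed on the same side of 2-fold. Since nearly all began under 2-fold, that count says little about direction. Only Bmp6 in BMS minus CTR and Ltbp2 in CTR minus VAS began past 2-fold, and neither changed sign, Ltbp2 under other normalizations alone. Smaller differences did change sign with the other control. Ltbp2 in VAD went from 0.50 to -0.53, and Bmp7 in BMS from 0.38 to -0.60. The joint limma fit called 0 members under each of its 10 alternatives, the 4 that left out an array included. Tgfbr2 did not reach an unadjusted p under 0.05 in limma without VAS or without VAD. Without an array the fit had no block, and the side left with 1 array was assumed to vary like the other. The experiment block, which pairs each deficient array with its own control, was part of the joint fit. Without it limma also called 0 members, and Tgfbr2 was the 1 at an unadjusted p under 0.05, beside 231 of all 12395 genes. With 1 array per group the spread between mice is unknown, and differences of any size, those past 2-fold included, cannot be separated from it.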

Other observations

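The span over the 4 arrays was at least 1 log2 unit in 4 of the 44 members, Bmp6, Bmper, Bmp4 and Ltbp2, a share of 9.09% beside 4.79% of all genes past the low-value limit. It was under 0.25 in 14 members, a share of 31.8% beside 29.9%, and smallest for Bmpr1a, with 0.05. The median span was 0.40 for the members and 0.35 for all genes.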
